A study of Mus musculus with 29 samples.

Results

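The urea cycle and amino acid catabolism genes described here are 37 liver genes chosen by name and function, not by a cut-off on measured values, though with earlier results of these data known: the enzymes and carriers of the urea cycle, and enzymes that break down individual amino acids. Their symbols were matched to Ensembl gene identifiers of the count table through the GENCODE M21 annotation. All 37 were found once among the 54532 genes of the table, and all 37 were among the 15603 genes with enough counts to test. The series profiled poly-A RNA from livers of obese male mice, some of which carry a form of Prox1 that cannot be modified by SUMO. Prox1 regulates transcription in the hepatocyte nucleus. SUMO modification couples a small ubiquitin-like protein to lysine residues, and the K556R substitution puts arginine in place of such a lysine.

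All mice ate chow until 8 weeks of age and then a diet with 45% fat and 20% fructose for 18 weeks. Livers were taken at ZT 15 to 17 (hours after lights on), either fasted or refed. The 29 libraries comprised 8 fasted WT, 6 refed WT, 7 fasted K556R and 8 refed K556R libraries. K556R stands for livers in which Prox1(K556R) was switched on in hepatocytes by Cre recombination at 8 weeks, and the titles of these libraries read Cre. WT stands for the libraries labelled wild type, whose titles read Ctrl. The promoter or vector behind Cre, the allele that the WT mice carry and the lengths of fasting and refeeding are not given in the sources used here. The labels do not say that the libraries of a group come from separate mice, so p-values measure the spread between libraries. Each group was spread over 2 batches named in the labels, with 4 and 4 fasted WT, 3 and 3 refed WT, 4 and 3 fasted K556R, and 4 and 4 refed K556R libraries. A substitution of one codon does not change which reads are counted, so gene counts could not check the genotype labels.

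As background, the liver takes up amino acids, removes their nitrogen and uses the carbon skeletons for glucose, ketones or energy. Aminotransferases and dehydratases pass the nitrogen to glutamate, aspartate or free ammonia, and the urea cycle turns ammonia and aspartate nitrogen into urea. In fasting, glucagon and glucocorticoids raise many of these enzymes in hepatocytes, and insulin after a meal lowers several of them. Most members are hepatocyte enzymes, and the urea cycle is strongest in hepatocytes around the portal vein.

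Libraries held 14385218 to 27278251 counts. Over all tested genes the leading principal component held 37.9% of the variance, and 97.2% of it was explained by batch, so the models behind the values given here account for batch, unless a single batch or a fit without it is named. The summed level of 7 hepatocyte markers lay between 69100 and 116000 CPM (counts relative to the TMM-scaled library size) in every library, and that of 6 pancreatic acinar markers at no more than 33.8 CPM. Lymphocyte markers summed to 203 CPM in 1 fasted WT library of batch 1 and to no more than 31.2 CPM elsewhere. Most feeding markers followed the labels. Of 8 genes known to rise on feeding, 7 were called higher in refed livers, among them the lipogenic regulator Srebf1 (log2 change 1.77). Of 8 known to rise in fasting, 5 were called lower, among them the gluconeogenic gene Pck1 (-1.59). In this second list 2 genes had positive changes, of up to 0.26, and 0 were called higher. A gene was called when its edgeR quasi-likelihood p, adjusted by Benjamini-Hochberg over all 15603 genes, was below 0.05.

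The members were abundant transcripts. Together they made up 21500 to 33100 CPM in each library. Per kilobase of exon, Mat1a, which makes S-adenosylmethionine, stood highest, at a mean of 1238 CPM per kb over the 29 libraries (lowest 782, highest 1796). It was followed by the urea cycle enzyme Ass1 at 777 CPM per kb (533 to 1078), the glycine methyltransferase Gnmt at 720 (578 to 933), the betaine methyltransferase Bhmt at 706 (435 to 973) and the tyrosine-pathway enzyme Hpd at 624 (416 to 909). The ranges of these neighbours over all libraries overlapped, and their order was not compared within each library. The lowest were Nags, which makes the activator of the first urea cycle enzyme, at 20.1 CPM per kb (15.1 to 24.1), and the serine dehydratase-like gene Sdsl at 9.37 (6.21 to 14.3), whose ranges did not overlap. Within the cycle itself the order by CPM per kb was Ass1, Arg1 (515), Cps1 (410), Asl (110) and Otc (78.6).

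Refeeding lowered a subset of the breakdown genes and left most members without a call. In the mean of both genotypes, 11 of the 37 members were called: Sds, Got1, Aass, Tdo2, Bhmt, Mat1a, Gpt2, Bckdha, Aspg and Slc25a13 were lower in refed livers, and Cbs was higher. Among all tested genes 25.6% were called in this comparison, 12.9% higher and 12.8% lower, so the share called among members was close to that of all genes, and the calls fell mostly on the lower side. Of the 37 log2 changes, 29 were negative, with a median of -0.11 against 0.01 over all tested genes, and 9 of the 37 were positive in place of 8 when libraries were scaled by total counts alone. Whether less RNA per hepatocyte or fewer hepatocytes lay behind a lower level cannot be told apart in bulk tissue. Without the 2 libraries farthest from their group and batch mean, a check chosen after seeing the data, 13 members were called, 10 of them among the 11. The share of all genes called in that fit is not given here.

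**Figure D1:**
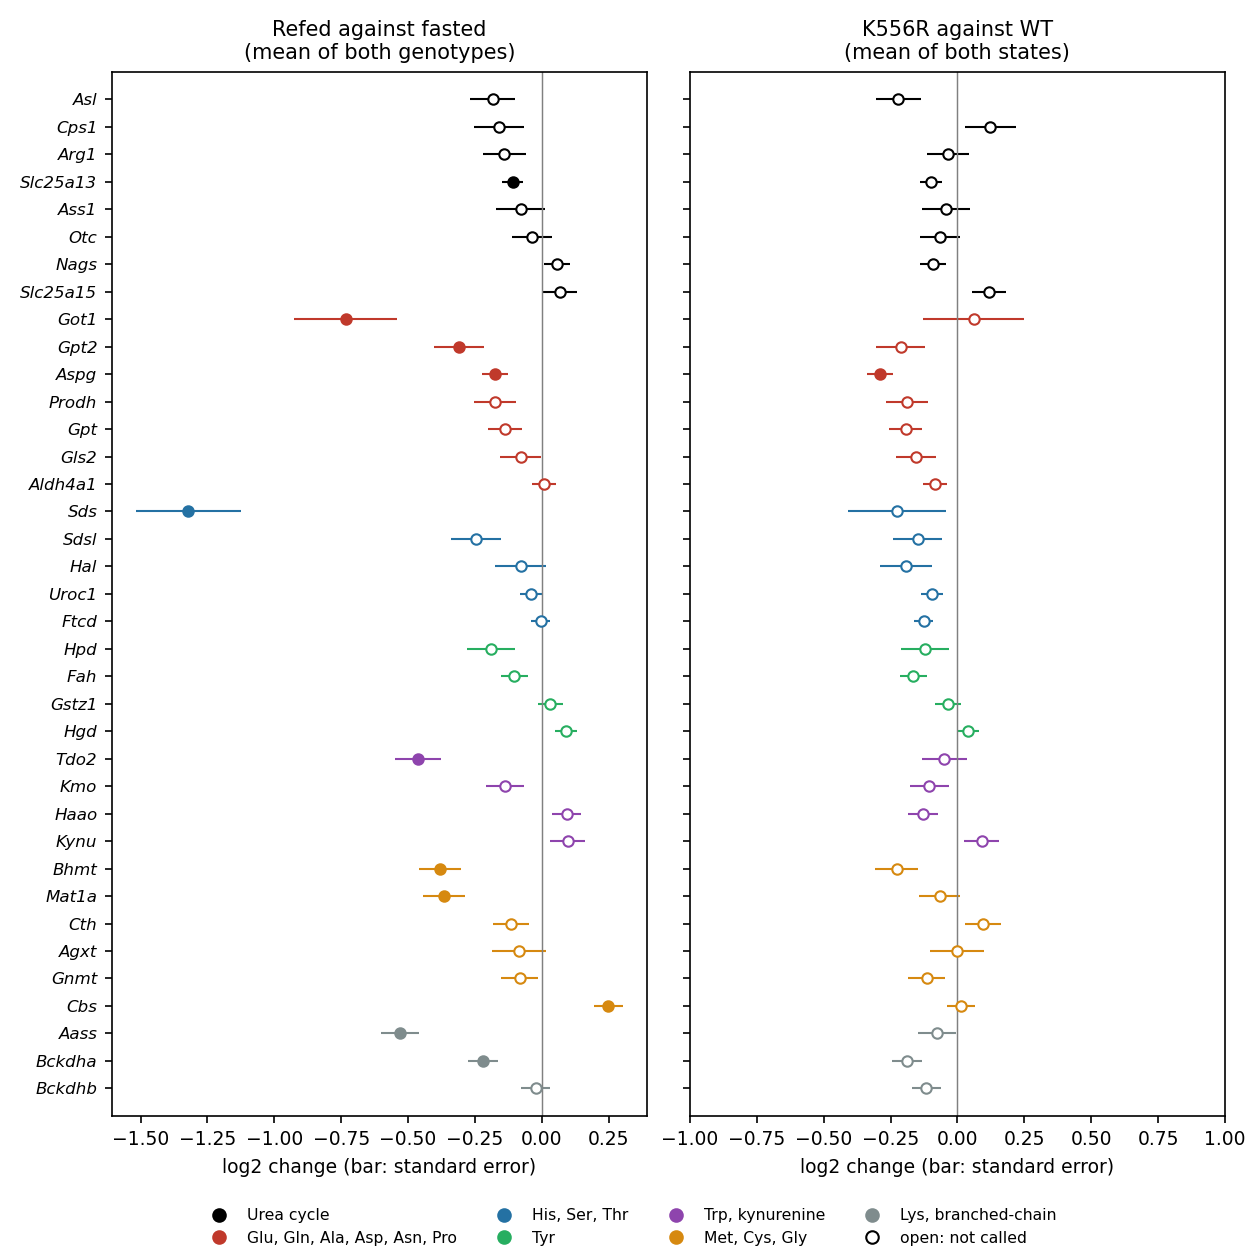
Log2 change of each of the 37 genes between refed and fasted livers (left, mean of both genotypes) and between K556R and WT livers (right, mean of both states), grouped by pathway. Points are edgeR estimates, bars their standard errors, and filled points genes with an adjusted p below 0.05; on the left 11 points are filled, from Sds at -1.32 to Cbs at 0.25, and on the right only Aspg.

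Among the 8 urea cycle members, only the carrier gene Slc25a13 was called, and its change was small. Slc25a13 encodes the mitochondrial exchanger that brings aspartate to the cytosol. Its level was 282 to 339 CPM (median 309) in fasted WT and 274 to 323 CPM (median 286) in refed WT libraries. In K556R it was 275 to 357 CPM (median 285) fasted and 236 to 295 CPM (median 271) refed. The ranges overlapped in both genotypes. The change of -0.11 ± 0.04 (log2, SE) had an edgeR adjusted p of 0.0469, and the call was lost in 23 of 29 fits that each left out 1 library.

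The 5 enzymes of the cycle were not called in the pooled comparison. Cps1 makes carbamoyl phosphate from ammonia in mitochondria and stood at 1790 to 2752 CPM (median 2295) in fasted WT and 1542 to 2877 CPM (median 2041) in refed WT. In K556R its range was 1654 to 3029 CPM (median 2687) fasted and 1634 to 2725 CPM (median 2144) refed. Its log2 change was -0.16 ± 0.09 (edgeR adjusted p = 0.226). Otc, the X-linked gene of the enzyme that joins carbamoyl phosphate to ornithine, lay at 288 to 406 CPM (median 337) in fasted WT and 256 to 471 CPM (median 330) in refed WT. The corresponding K556R values were 290 to 388 CPM (median 361) and 275 to 386 CPM (median 304). These ranges overlapped broadly, with a change of -0.03 ± 0.07 (edgeR adjusted p = 0.787).

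The cytosolic enzymes gave similar values. Ass1, which joins citrulline to aspartate, was at 1485 to 2603 CPM (median 1985) in fasted and 1441 to 2069 CPM (median 1874) in refed WT livers. In K556R livers it was at 1287 to 2371 CPM (median 1976) fasted and 1472 to 2487 CPM (median 1814) refed. Its change was -0.08 ± 0.09 (edgeR adjusted p = 0.585). Asl releases fumarate and arginine; its level was 469 to 800 CPM (median 592) in fasted and 418 to 688 CPM (median 545) in refed WT. Its K556R levels were 397 to 630 CPM (median 532) and 411 to 540 CPM (median 456), and its change was -0.18 ± 0.08 (edgeR adjusted p = 0.116). Arg1 splits arginine into urea and ornithine. It ranged over 900 to 1421 CPM (median 1294) in fasted and 915 to 1237 CPM (median 1127) in refed WT, and over 836 to 1594 CPM (median 1223) and 946 to 1179 CPM (median 1074) in K556R. The change of Arg1 was -0.14 ± 0.08 (edgeR adjusted p = 0.215). The remaining members of the group, Nags and the ornithine carrier Slc25a15, were at 0.06 and 0.07 and not called.

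**Figure D2:**
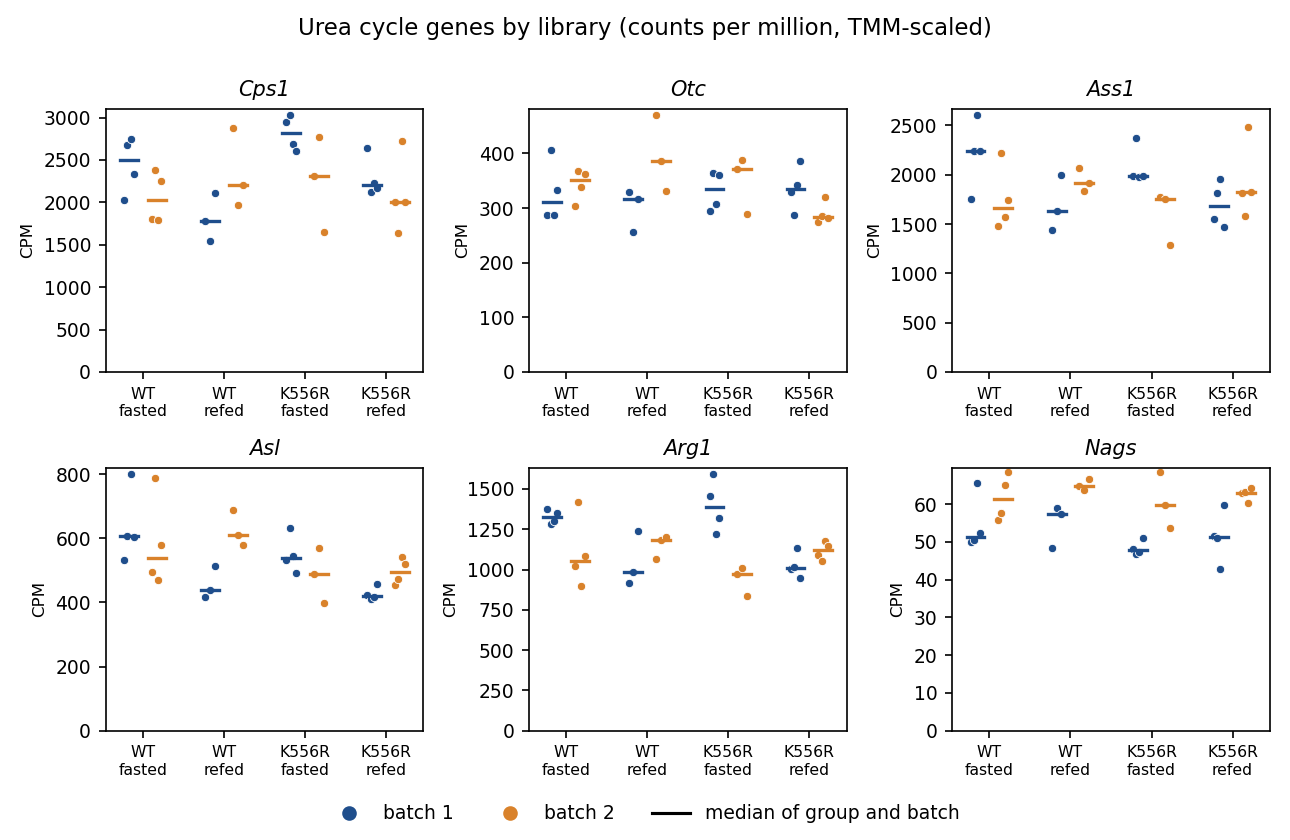
CPM (scaled by TMM) of 6 urea cycle genes in each of the 29 libraries, by group and batch; each point is 1 library, the short lines are medians of a group within a batch, and every axis starts at 0. In batch 1 the refed medians of Cps1, Ass1, Asl and Arg1 lie below the fasted ones of the same genotype; in batch 2 fasted and refed points overlap, except for Arg1 in K556R, where all 4 refed points (1055 to 1179 CPM) lie above the 3 fasted ones (836 to 1009 CPM).

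Of the 7 genes of glutamate, glutamine, alanine, aspartate, asparagine and proline breakdown, 3 were called, all lower on refeeding. Got1 is the cytosolic aspartate aminotransferase, at chr19:43499752-43524605 on the minus strand of GRCm38. Its level was 91.1 to 372 CPM (median 181) in fasted and 67.9 to 162 CPM (median 103) in refed WT livers. In K556R it was 89.6 to 260 CPM (median 176) fasted and 61 to 187 CPM (median 126) refed. Fasted and refed ranges overlapped in both genotypes. Got1 fell by 0.73 ± 0.19 on the log2 scale (edgeR adjusted p = 0.00489), that is, its mean level fell by 39.8%.

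Gpt2, the mitochondrial alanine aminotransferase, had 693 to 1196 CPM (median 899) in fasted and 647 to 809 CPM (median 727) in refed WT. Its K556R values were 555.6 to 1074 CPM (median 808) fasted and 425 to 818 CPM (median 624) refed. It fell by 0.31 ± 0.09 (edgeR adjusted p = 0.0142), with overlapping ranges. The asparaginase gene Aspg fell by 0.18 ± 0.05 (edgeR adjusted p = 0.00901); its values by library are given with the genotype comparison, where it was also called. The other members of the group, the cytosolic alanine aminotransferase Gpt, the glutaminase Gls2 and the proline-pathway enzymes Prodh and Aldh4a1, ran from -0.18 to 0.01 and were not called.

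Sds showed the widest response of the 37 genes. It encodes serine dehydratase, which turns serine into pyruvate and ammonia, and lies at chr5:120476526-120483932 on the plus strand. Fasted WT libraries held 101 to 317 CPM (median 219) and refed WT libraries 39.6 to 112 CPM (median 75.6). Fasted K556R libraries held 95.2 to 216 CPM (median 147) and refed ones 41.4 to 104 CPM (median 75.6). The refed medians were thus nearly the same in both genotypes, and the ranges of fasted and refed libraries met only at about 95 to 112 CPM. Sds fell by 1.32 ± 0.20 on the log2 scale (edgeR adjusted p = 6.6e-06). None of the other 4 members for histidine, serine and threonine was called. The histidine-pathway genes Hal, Uroc1 and Ftcd changed by -0.08 to 0.00, and Sdsl, the paralog that lies next to Sds, by -0.24 (edgeR adjusted p = 0.0534).

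Sds is overlapped on the opposite strand by Plbd2, whose counts came to 68.3% of those of Sds, and the sources used here do not say whether counting used strand. Reads of both genes may therefore have been mixed. Plbd2 itself changed by -0.26 on refeeding, -0.30 in batch 1 and -0.21 in batch 2, against -2.06 and -0.52 for Sds. An antisense gene at Sds, Gm15690, had counts equal to 4.18% of those of Sds. Its change was -1.53, with -1.63 in batch 1 and -1.47 in batch 2. Kmo is overlapped in the same way by Fh1 (54.8% of its counts), Prodh by Dgcr6 (13.9%) and Gls2 by Spryd4 (10.8%). For every other member an overlapping gene held less than 5% of its counts, 4.24% at most for a protein-coding one (B3gnt8 at Bckdha).

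The 4 tyrosine-pathway genes, Hpd, Hgd, Gstz1 and Fah, gave no call on refeeding and ran from -0.19 (Hpd) to 0.09 (Hgd). Among the 4 tryptophan and kynurenine genes only Tdo2 was called. Tdo2 is tryptophan dioxygenase, the first enzyme of the pathway and a textbook target of glucocorticoids, at chr3:81957090-81976202 on the minus strand. It stood at 1205 to 2228 CPM (median 1917) in fasted and 1156 to 1637 CPM (median 1466) in refed WT. In K556R it stood at 1221 to 2646 CPM (median 2194) fasted and 1060 to 1657 CPM (median 1224) refed. The fall of 0.46 ± 0.09 on the log2 scale (edgeR adjusted p = 0.000145) was called although the ranges overlapped. Kmo, Haao and Kynu, further down the pathway, were at -0.14, 0.09 and 0.10 and not called.

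Methionine metabolism held calls in both directions. Bhmt remethylates homocysteine with betaine, and its level was 3916 to 5603 CPM (median 5018) in fasted and 3346 to 4591 CPM (median 3781) in refed WT. In K556R it was 2878 to 5281 CPM (median 4917) fasted and 2506 to 4845 CPM (median 3004) refed. The change was -0.38 ± 0.08 (edgeR adjusted p = 0.000571). An antisense gene inside Bhmt, Gm15622, had counts equal to 0.315% of those of Bhmt and changed by -1.78.

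Mat1a had 3929 to 6035 CPM (median 4823) in fasted and 2923 to 4580 CPM (median 3811) in refed WT, and 3973 to 6230 CPM (median 4605) and 2711 to 4040 CPM (median 3714) in K556R. It fell by 0.37 ± 0.08 (edgeR adjusted p = 0.000644). Cbs, which commits homocysteine to cysteine synthesis, went the other way. Its range was 155 to 241 CPM (median 211) in fasted and 205 to 247 CPM (median 230) in refed WT. In K556R all refed libraries, at 222 to 273 CPM (median 245), lay above all fasted ones, at 172 to 210 CPM (median 193). Cbs rose by 0.25 ± 0.05 on the log2 scale (edgeR adjusted p = 0.000718). Cth, Gnmt and the glyoxylate enzyme Agxt changed by -0.11, -0.08 and -0.09 and were not called.

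Of the 3 genes for lysine and branched-chain amino acids, 2 were called lower. Aass carries the first 2 steps of lysine breakdown and lies at chr6:23072173-23132986 on the minus strand. Fasted WT libraries had 348 to 547 CPM (median 465), and every refed WT library was lower, at 260 to 333 CPM (median 326). Fasted K556R libraries had 306 to 596 CPM (median 439) and refed ones 246 to 345 CPM (median 290), with an overlap. Aass fell by 0.53 ± 0.07 (edgeR adjusted p = 1.6e-06). Bckdha, a subunit of the branched-chain ketoacid dehydrogenase, had 68.5 to 107 CPM (median 75.2) and 63.6 to 78.6 CPM (median 67.8) in fasted and refed WT. In K556R all refed values, at 49.3 to 64 CPM (median 60.7), lay below all fasted ones, at 64.6 to 76.7 CPM (median 68.4). It fell by 0.22 ± 0.06 (edgeR adjusted p = 0.00447), while Bckdhb, the gene of the partner subunit, changed by -0.02 and was not called.

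**Figure D3:**
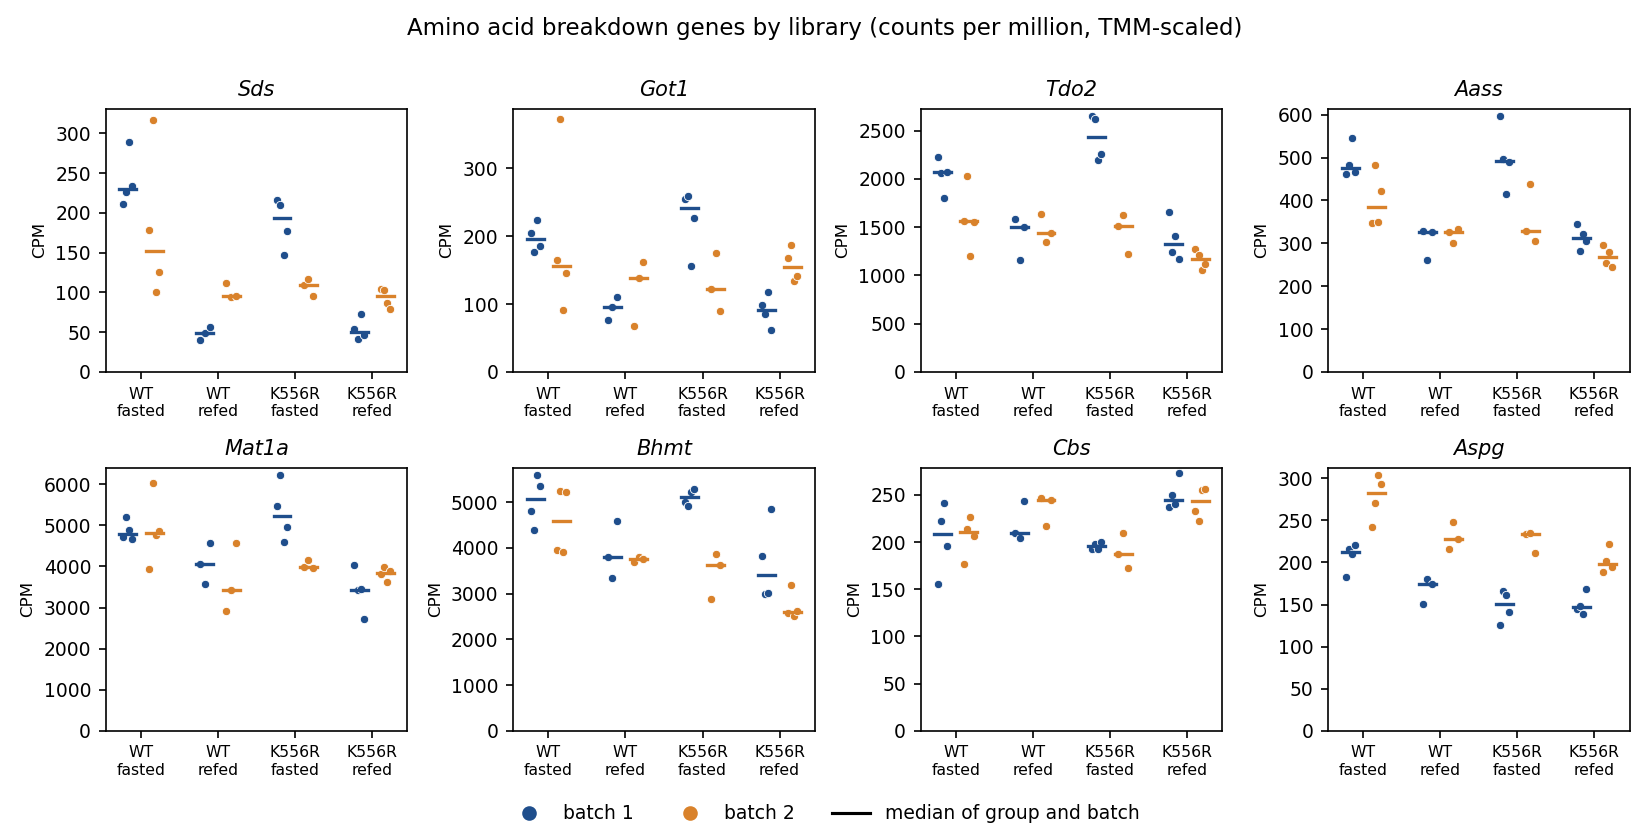
CPM (scaled by TMM) of 8 genes called in the refeeding or the genotype comparison, in each of the 29 libraries, by group and batch; each point is 1 library, short lines are medians of a group within a batch, and every axis starts at 0. In batch 1 all refed points of Sds, Got1, Tdo2, Aass and Mat1a lie below all fasted points, both genotypes together; in batch 2, taken in the same way, the states overlap for these genes.

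RefSeq start regions (GRCm38.p6) were found for 27 of the 37 members and were searched, from 250 bases before to 50 bases after the start, for short motifs of factors of the fasted liver. The short cAMP response element TGACG was in 18.5% of the 27 members with a region and in 20.8% of all 32851 regions. The full site TGACGTCA was in none of the members and in 1.79% of all regions. A C/EBP motif TTGCNNAA was in 11.1% of members against 10.8%, the glucocorticoid motif AGAACA in 14.8% against 19.0%, and the HNF4 motif CAAAGTCCA in none against 0.475%. Both strands were searched, and the short cAMP element is part of the full one. A match is a stretch of letters and does not show a bound factor. Of the members called on refeeding, Sds and Mat1a had no region and were not searched. Aass held the short element (37 bases before the start) and a C/EBP match (22 bases before), and Slc25a13 the short element. The bases upstream of Aass and of Got1 are shown because these 2 genes had the largest falls on refeeding among the members with a region. The Got1 window holds none of the searched motifs. In Aass the capitals mark the short cAMP element and, on the opposite strand, the C/EBP match.
Aass, chr6:23132987-23133236, minus strand, 5′ to 3′: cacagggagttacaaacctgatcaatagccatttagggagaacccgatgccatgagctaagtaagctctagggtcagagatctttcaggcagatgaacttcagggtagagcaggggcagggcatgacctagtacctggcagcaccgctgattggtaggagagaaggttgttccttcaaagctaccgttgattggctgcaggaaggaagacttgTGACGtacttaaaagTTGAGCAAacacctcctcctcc
Got1, chr19:43524606-43524855, minus strand, 5′ to 3′: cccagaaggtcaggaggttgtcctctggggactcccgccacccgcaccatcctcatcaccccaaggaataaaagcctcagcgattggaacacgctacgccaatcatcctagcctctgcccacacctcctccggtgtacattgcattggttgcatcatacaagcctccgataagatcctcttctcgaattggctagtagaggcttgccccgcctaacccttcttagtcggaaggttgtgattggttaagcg

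The response to refeeding was then read in each genotype. In WT, 6 members were called, all lower (Sds, Sdsl, Got1, Aass, Mat1a and Aspg), where 10.7% of all genes were called. In K556R, 7 members were called, with Tdo2, Sds, Aass, Bckdha, Bhmt and Mat1a lower and Cbs higher, where 15.4% of all genes were called. Tdo2 changed by -0.31 ± 0.12 in WT (edgeR adjusted p = 0.117) and by -0.61 ± 0.12 in K556R (edgeR adjusted p = 0.000435). Got1 changed by -0.86 ± 0.28 in WT (edgeR adjusted p = 0.0417) and by -0.60 ± 0.27 in K556R (edgeR adjusted p = 0.130). Aspg changed by -0.28 ± 0.07 in WT (edgeR adjusted p = 0.00942).

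These pairs do not show that the genotypes differ, and the test of the difference called no member. By edgeR 0 of the 37 members and 0.0% of all genes had a refeeding response that differed between genotypes, with 1 member (Aspg, 0.22 ± 0.10) and 440 genes at an unadjusted p below 0.05, and DESeq2 called 0 genes. The WT calls of Sdsl, Got1 and Mat1a were lost in 19, 10 and 23 of 29 fits that each left out 1 library. Leaving out any of 8 libraries left 3 called members in WT, namely any of the 4 fasted WT libraries or refed WT repeats 1 and 2 of batch 1, or fasted WT repeat 2 or refed WT repeat 1 of batch 2. How many of all genes these fits called is not given here, so the drop is not shown to be particular to the members. In K556R the call of Bckdha was lost without fasted repeat 3 or refed repeat 3 of batch 1, or without fasted repeat 1 or 2 of batch 2.

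The batches differed in how several of these genes responded to refeeding, and 4 urea cycle enzymes were called lower in batch 1 and not in batch 2. With batch 1 fitted alone, 14 members were called and all were lower in refed livers, where 8.21% of all genes were called lower. Besides Sds (-2.05), Got1 (-1.18), Tdo2 (-0.67) and Aass (-0.67), these were Sdsl (-0.57), Gpt2 (-0.57), Mat1a (-0.44), Bhmt (-0.41), Prodh (-0.34) and Gpt (-0.31), and from the urea cycle Asl (-0.41), Arg1 (-0.39), Cps1 (-0.35) and Ass1 (-0.33). With batch 2 fitted alone, Aass (-0.38), Bhmt (-0.33), Kmo (-0.26), Aspg (-0.23) and Bckdha (-0.20) were called lower and Cbs (0.26) higher, where 10.5% of all genes were called lower. Kmo and Prodh were called within a single batch and not in the pooled fit, and are named here after their values were seen.

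The difference between batches was tested directly. The refeeding change was more positive in batch 2 than in batch 1 for 5 members, Sds, Sdsl, Gpt2, Arg1 and Gpt, where 2.74% of all genes were called in either direction and 1.0% in this one. The log2 difference, batch 2 minus batch 1, was 1.54 ± 0.24 for Sds (edgeR adjusted p = 0.00221), 0.71 ± 0.13 for Sdsl (0.00587), 0.56 ± 0.14 for Gpt2 (0.0289), 0.55 ± 0.12 for Arg1 (0.0148) and 0.38 ± 0.10 for Gpt (0.0450). In batch 2 the change itself was -0.52 for Sds, -0.02 for Gpt2, 0.06 for Gpt, 0.13 for Sdsl and 0.15 for Arg1, and none of these was called with batch 2 fitted alone. The difference was 0.54 for Ass1 (edgeR adjusted p = 0.0583), 0.49 for Asl (0.0702), 1.00 for Got1 (0.0890) and 0.41 for Cps1 (0.185), and these were not called. Of the 37 differences 31 were positive, with a median of 0.14 against 0.01 over all genes. For Gpt the call was lost in 23 of 29 fits that left out 1 library, and for Gpt2 in 6, namely without fasted K556R, fasted WT or refed WT repeat 1 of batch 1, or without fasted K556R repeat 2, refed K556R repeat 1 or refed WT repeat 2 of batch 2.

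In batch 1 the fasted libraries of Sds lay at 147 to 289 CPM (n = 8, median 214) and the refed ones at 39.6 to 72.3 CPM (n = 7, median 49.1). In batch 2 they lay at 95.2 to 317 CPM (n = 7, median 117) and 79 to 112 CPM (n = 7, median 95.5). Batch 2 therefore had lower fasted and higher refed levels of Sds, and its states overlapped. With both genotypes together, fasted and refed libraries did not overlap in batch 1 for Sds, Got1, Tdo2, Aass, Mat1a and Sdsl, and overlapped in batch 2 for every member. Within each genotype taken alone, the states of Aass were also apart in batch 2, at 348 to 482 CPM fasted and 301 to 333 CPM refed in WT, and 306 to 439 CPM and 246 to 296 CPM in K556R. Those of Arg1, Cbs and Sdsl (refed higher) and of Bckdha, Kmo and Slc25a13 (refed lower) were apart in batch 2 in K556R alone, and those of Bhmt (refed lower) in WT alone. How many of all tested genes were apart in these ways was not counted. Such a separation is therefore not shown to be particular to the members. One library, fasted WT repeat 2 of batch 2, held the highest Sds (317 CPM) and Got1 (372 CPM) of all libraries. Without it 9 members were called different between batches in place of 5. The share of all genes called in this fit and in the next ones is not given here. Without fasted K556R repeat 1 or refed WT repeat 1 of batch 1, or fasted K556R repeat 2, refed K556R repeat 1 or refed WT repeat 2 of batch 2, 3 members were called.

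The 8 genes known to rise on feeding all had positive refeeding changes in batch 1 and in batch 2. Of the 8 known to rise in fasting, 2 had positive changes in batch 1 and 1 in batch 2. Whether the batches were refed alike was not tested. Srebf1 changed by 1.49 in batch 1 and 2.06 in batch 2, the fatty acid synthase gene Fasn by 2.02 and 3.21, Pck1 by -1.83 and -1.34, and the fasting-induced Igfbp1 by -1.39 and -1.73. The sum of the 8 refed markers in WT livers overlapped between states in batch 2, at 10900 to 20600 CPM fasted and 10800 to 22700 CPM refed, and did not in batch 1, at 17400 to 22400 CPM and 22700 to 33300 CPM. In K556R livers it was the reverse: the sum overlapped in batch 1, at 16000 to 22400 CPM fasted and 11800 to 36700 CPM refed, and did not in batch 2, at 12600 to 12900 CPM and 14900 to 34300 CPM. Macrophage markers moved with batch too: their median refeeding change was -0.45 in batch 1 and 0.10 in batch 2, with none of 14 called. Their summed level ran from 296 to 1050 CPM over all libraries, no marker was at 0 in any group, and their part in the member results was not tested.

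**Figure D4:**
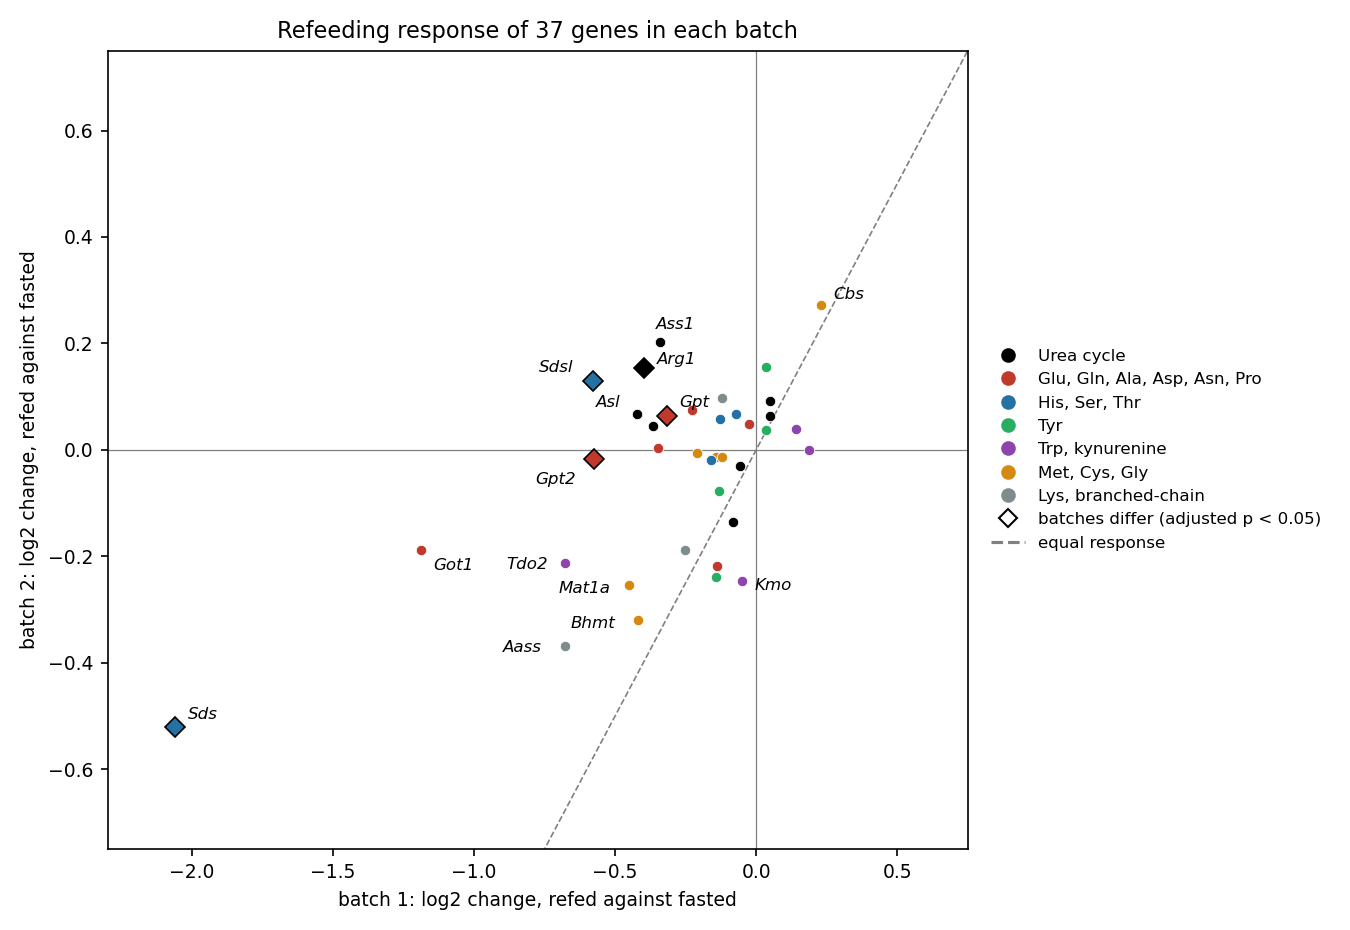
Log2 change between refed and fasted livers (mean of both genotypes) of each of the 37 genes in batch 1 (horizontal) and batch 2 (vertical), coloured by pathway; the 2 axes have different scales and the dashed line marks equal responses. Diamonds are the 5 genes whose responses differed between batches at an adjusted p below 0.05; Sds lies at -2.06 and -0.52, and Cbs near the line at 0.23 and 0.27.

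Between K556R and WT livers 1 member was called, the asparaginase gene Aspg, which was lower in K556R. The labels do not say whether WT mice also received Cre. An effect of Cre therefore cannot be told apart from that of the allele in any genotype comparison here. Aspg lies at chr12:112106679-112127559 on the plus strand and encodes an enzyme that splits asparagine into aspartate and ammonia. In batch 1 fasted WT libraries held 183, 216, 210 and 221 CPM, and fasted K556R libraries 125, 166, 162 and 141 CPM. In batch 2 the values were 243, 271, 304 and 294 CPM in fasted WT and 233, 235 and 211 CPM in fasted K556R. All fasted K556R libraries were thus below all fasted WT libraries of their own batch, and all levels were higher in batch 2. In refed livers of batch 1 Aspg was at 151, 181 and 175 CPM in WT and 145, 149, 139 and 169 CPM in K556R, and in batch 2 at 216, 248 and 228 CPM in WT and 188, 201, 222 and 195 CPM in K556R. The refed ranges of the genotypes overlapped in each batch.

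In fasted livers Aspg fell by 0.40 ± 0.07 on the log2 scale (edgeR adjusted p = 0.0175), and it was the only member called, where 0.103% of all genes were called. The call was lost without fasted K556R repeat 1 or 4, or fasted WT repeat 2, 3 or 4, all of batch 1, with an adjusted p of up to 0.0862. In the mean of both states it fell by 0.29 ± 0.05 (edgeR adjusted p = 0.00185), again as the only called member, where 1.24% of all genes were called, and this call held in all 29 fits that left out 1 library. Its change was -0.33 in batch 1 and -0.24 in batch 2, and neither batch fitted alone called it (edgeR adjusted p = 0.0584 and 0.451). In refed livers no member was called by edgeR (0.0% of all genes); Aspg changed by -0.18 ± 0.07 (adjusted p = 0.481), 7 members and 1319 genes had an unadjusted p below 0.05, and DESeq2 called 44 genes.

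The other 36 members gave small and mostly negative differences between genotypes. In the mean of both states 30 of 37 log2 changes were negative, with a median of -0.10 against 0.00 over all genes, and 27 of 37 with a median of -0.06 when total counts alone set the scale. They ran from -0.29 (Aspg) to 0.12 (Cps1). At an unadjusted p below 0.05 stood 14 members, among 2291 of all genes. By pathway, the changes had medians of -0.19 in the glutamate to proline group, -0.15 in the histidine, serine and threonine group, -0.12 in the lysine and branched-chain group, -0.08 each in the tyrosine and tryptophan groups, -0.05 in the urea cycle and -0.03 in methionine metabolism. Nearest to a call were the folate-linked histidine enzyme Ftcd at -0.13 ± 0.04 (edgeR adjusted p = 0.0731), the last tyrosine enzyme Fah at -0.16 ± 0.05 (0.0915) and Bckdha at -0.19 ± 0.06 (0.0920), named after their values were seen. In batch 1, 14 of the 37 were positive with a median of -0.06, and in batch 2, 1 was positive with a median of -0.14. The difference of the genotype effect between batches was called for no member and 0.0% of all genes by edgeR; 5 members and 1358 genes had an unadjusted p below 0.05, and DESeq2 called 1 gene. Without refed K556R repeat 4 of batch 1, 4 members were called in the mean of both states. The share of all genes called in that fit is not given here, so the rise is not shown to be particular to the members.

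The urea cycle genes differed little between genotypes, none of the 8 being called. In the mean of both states Cps1 was at 0.12 ± 0.09 (edgeR adjusted p = 0.576), Otc at -0.06 ± 0.07 (0.740), Ass1 at -0.04 ± 0.09 (0.865), Asl at -0.22 ± 0.08 (0.198) and Arg1 at -0.04 ± 0.08 (0.876). Of the genes with large refeeding responses, Sds was at -0.23 ± 0.18 (edgeR adjusted p = 0.608), Got1 at 0.06 ± 0.19 (0.916) and Tdo2 at -0.05 ± 0.08 (0.840). Genes induced by interferon rose in K556R livers, 15 of 16 being called, with a median change of 1.17 in batch 1 and 0.42 in batch 2. The 14 macrophage markers were all positive with a median of 0.15 and none called. How far these shifts bear on the member values was not tested.

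Further genes of the same biology were read from lists that hold no member. On refeeding 12.9% of all tested genes were called higher and 12.8% lower, and the lists were not tested against these shares. Of 11 other ammonia and urea cycle genes tested, 1 was called higher on refeeding, the glutamate dehydrogenase Glud1 (0.29 ± 0.04), and 2 lower, the mitochondrial glutamate carrier Slc25a22 (-0.53 ± 0.08) and the glycerol and urea channel Aqp9 (-0.21 ± 0.07). Their median was -0.09. Slc25a22 also fell less in batch 2 (-0.25) than in batch 1 (-0.78), by a difference of 0.53 ± 0.11 (edgeR adjusted p = 0.0137). Of 49 other amino acid breakdown genes, 3 were called higher and 11 lower, with a median of -0.05. The branched-chain ketoacid dehydrogenase phosphatase Ppm1k was at -1.06 ± 0.14, the cysteine dioxygenase Cdo1 at -0.34 ± 0.07, the tyrosine aminotransferase Tat at -0.83 ± 0.19, and the serine hydroxymethyltransferase Shmt1 at 0.35 ± 0.05.

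Amino acid transporters moved in both directions, 3 of 15 being called higher and 6 lower, where 12.9% and 12.8% of all genes were called. The cationic amino acid transporter Slc7a2, which brings in arginine and lysine, fell by 1.23 ± 0.12, Slc38a4 by 0.59 ± 0.06 and the glycine transporter Slc6a9 by 0.67 ± 0.08, while the neutral amino acid transporter Slc1a4 rose by 1.46 ± 0.15. Of 17 regulators of these pathways, 9 were called lower and 1 higher. Cebpb, a transcription factor of the fasted liver, fell by 1.26 ± 0.10, Foxo1, a factor that insulin inactivates, by 0.92 ± 0.09, Ppara, a factor of the fasting response, by 0.76 ± 0.08 and the mitochondrial deacetylase Sirt3 by 0.21 ± 0.04. All of these had the same sign in both batches.

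In the genotype comparison of both states, where 1.24% of all genes were called, none of the 11 ammonia genes and none of the 15 transporters was. Of the 49 breakdown genes Got2, the mitochondrial partner of Got1 (-0.14 ± 0.03, edgeR adjusted p = 0.0287), and Grhpr, a glyoxylate reductase (-0.19 ± 0.05, 0.0431), were lower in K556R. Of the 17 regulators Cebpb (-0.43 ± 0.10, edgeR adjusted p = 0.0222) and Sirt3 (-0.15 ± 0.04, 0.0231) were lower. The medians of the 4 lists were -0.06, -0.06, -0.08 and -0.07 in the order ammonia genes, transporters, breakdown genes and regulators.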

How the data were processed

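Poly-A RNA of 29 mouse liver libraries was sequenced. The authors deposited 1 table of raw counts per gene, with integers in 1 column per library. Per the submitters' processing notes the tools were STAR and TopHat, STAR-Fusion, HTSeq, edgeR and DESeq2, on mm10. The annotation release and the strand setting are not given in the sources used here, and the labels' protocol allows for directional and non-directional libraries. Of 54532 gene identifiers 54495 matched GENCODE M21; the rest held 0.000917% of counts.

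Genes were kept by filterByExpr by group, with a minimum count of 10 and a minimum of 15 over all libraries. The count of 10 is asked of a number of libraries set by the smallest group, not of every library. After this, 15603 genes remained, with 99.92% of counts. Totals ran from 14385218 to 27278251, and counts hold PCR copies. Libraries were scaled by TMM. An edgeR 4.0.16 quasi-likelihood model (R 4.3.3, limma 3.58.1) had 1 coefficient per group plus batch, and a second model 1 coefficient per group and batch gave within-batch values and differences between batches; the common biological coefficient of variation was 0.191. The standard error is the log2 change divided by the root of F. Alternatives were DESeq2 1.42.0, other scalings, no filter, no batch term, single batches, a replicate block, only the groups compared and leaving out each library. The procedure was also run on simulated counts with changes added to some genes. These counts held no batch effect, unlike the data, and the outcome is not given here.

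The 37 members and all lists were chosen with earlier results of these data known. Full values are given for members called in the mean refeeding comparison or a genotype comparison and for Cps1, Otc, Ass1, Asl and Arg1; other members by group. Up to 4 called genes with the smallest p are named from each further list. The marker counts below stand beside 25.6% of all genes called on refeeding and 1.24% in the genotype mean. Marker lists besides those in the results gave, for refeeding, 0 called of 9 lymphocyte, 3 neutrophil, 8 endothelial, 6 cholangiocyte, 1 adipocyte, 1 pancreatic and 5 red cell genes tested, 1 of 11 stellate (higher), 1 of 7 hepatocyte (lower), 2 higher and 1 lower of 10 periportal, and 2 higher and 3 lower of 12 pericentral genes; 0 of these lists' genes were called in the genotype mean.

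All 92 pairs within a group differed beyond counting noise (chi-square per degree of freedom 11.04 or more), so all were counted as separate libraries.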

Additional observations from a re-analysis of the deposited data

Results flagged for a closer look

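For 18 genes (the 16 given with full values, and Sdsl and Gpt, called for a batch difference) the 4 groups make 72 sets of values, of which 3 held a library far from the rest of its group by Dixon's test at the 95% level, about what chance gives at 1 in 20. Bckdha was at 107 CPM in fasted WT repeat 3 of batch 1, where the other 7 lay at 68.4 to 81.9 CPM. Mat1a was at 2710 CPM in refed K556R repeat 4 of batch 1, where the others lay at 3420 to 4040 CPM; this library was also among the 2 farthest from their group and batch mean over all genes. Slc25a13 was at 357 CPM in fasted K556R repeat 2 of batch 1, where the others lay at 275 to 303 CPM.

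The refeeding response differed between the 2 batches for 5 member genes, by the edgeR test of the difference adjusted over all genes. By the same test 2.74% of all tested genes were called in either direction, and 1.0% with a more positive change in batch 2. The log2 difference, batch 2 minus batch 1, was 1.54 for Sds, 0.709 for Sdsl, 0.559 for Gpt2, 0.551 for Arg1 and 0.381 for Gpt. In batch 2 the change was -0.52 for Sds, -0.02 for Gpt2, 0.06 for Gpt, 0.13 for Sdsl and 0.15 for Arg1, against -2.06, -0.58, -0.32, -0.58 and -0.40 in batch 1. Both batches hold all 4 groups.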

How the results depend on the processing

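The 11 members called on refeeding (mean of both genotypes) became 6 with batch 2 alone. The 6 called in WT became 2 without a batch term and 0 with batch 2 alone, and the 7 in K556R became 4 with batch 2 alone. In the genotype comparison the 1 member called when fasted became 0 without a batch term, with batch 1 alone and with batch 2 alone; the 1 called in the mean of both states became 3 with DESeq2 and 0 without a batch term, with batch 1 alone and with batch 2 alone. The 5 called for a batch difference in refeeding became 8 with DESeq2 and 8 with total counts as the library size. The cause of these shifts was not tested, and a single batch also holds fewer libraries than the full fit. These are counts of members alone, without the share of all genes called in each setting. Leaving out 1 library gave 10 to 14 members for refeeding, 3 to 7 in WT, 6 to 8 in K556R, 0 to 1 for genotype when fasted, 1 to 4 in the mean of both states and 3 to 9 for the batch difference, and 0 throughout for genotype when refed, for the difference between genotypes in the refeeding response and for the batch difference in the genotype effect. No called log2 change reversed under any alternative.

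Repeat numbers within a batch did not pair libraries: over 40 pairs the correlation of deviations ran from -0.387 to 0.36 (median -0.029), and 9 of 29 libraries correlated best with their own number. With the repeat number as a block, 11 members were called on refeeding, 3 in WT in place of 6, 7 in K556R, 1 for genotype when fasted and 1 in the mean of both states. These too are counts of members alone, without the share of all genes called in the block fit.

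The lowest count of a member in any library was 166 (Sdsl). Changes as small as that of Slc25a13 (-0.11) sat at the threshold: it was not called with median-of-ratios scaling (edgeR adjusted p = 0.0542), with total counts (0.0509), without the filter (0.179), without a batch term (0.0640) or without the 2 libraries farthest from their group mean (0.0888).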
